A study of Rattus norvegicus with 15 samples.

Results

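Fatty acid and cholesterol synthesis genes were followed in rat lung as 34 genes taken by symbol from a table of 22250 genes. They comprised 11 genes of fatty acid synthesis, elongation and desaturation, 5 genes of the SREBP control system, and 18 genes of sterol synthesis and transfer. All 34 symbols were found, and 33 passed the filter on low values (at least 1 FPKM in at least 5 of 15 libraries). The remaining gene, the elongase Elovl6, was listed at 0 in all 15 libraries, which can be a failed estimate. RNA sequencing of whole lung from wild type rats gave 5 libraries in each of 3 groups. The control group is labelled normal control. The ALI group (acute lung injury) received LPS, a bacterial endotoxin, through the trachea. The SJY group received the same LPS and, by stomach, Sang Ju Yin, a herbal formula. All groups shared the wild type genotype, and the labels used here state no age, strain, dose or time, no vehicle for the formula, and not whether a library is 1 animal. Values are FPKM, a unit scaled to gene length and to sequencing depth, so levels of different genes can be set side by side.

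Acly supplies acetyl-CoA, cells build palmitate from it through Acaca and Fasn, and elongases and desaturases then shape the chain. Cholesterol is built from the same acetyl-CoA through mevalonate, isoprenoids, squalene and lanosterol. Both branches are driven by SREBP transcription factors: SREBP-1c, a product of Srebf1, acts mainly on fatty acid genes, and SREBP-2, the product of Srebf2, mainly on sterol genes. Scap carries the SREBP precursors to the Golgi for cleavage, and Insig1 and Insig2 hold Scap in the endoplasmic reticulum when sterols are plentiful. In the lung, alveolar type II cells use newly made fatty acids for surfactant phospholipid.

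SREBP proteins bind sterol regulatory elements and often act beside the factor NF-Y, which binds CCAAT. The RefSeq promoter table (GRCr8) matched 27 of the 34 genes; Elovl6, Stard4, Fdft1, Acaca, Fasn, Sqle and Pmvk had no entry. Over the 250 bases before the gene start, on both strands, CCAAT stood in 12 of 14 sterol genes (85.7%), 4 of 8 fatty acid genes and 4 of 5 SREBP control genes (80.0%). The share among all 33469 promoters of that length was 34%. The sterol element core CACNCCAC was found in 5 of 27 (18.5%; Elovl5, Fads1, Insig1, Acat2 and Ebp), against 4.89% of all promoters. The E-box CACGTG was found in 4 of 27 (14.8%, Elovl5, Scap, Insig1 and Sc5d), against 5.59% of all promoters and 7.58% of promoters of tested genes. The 27 were counted as genes and the background as promoters, and a gene can have more than 1 (Srebf1 has 2). None of these 3 motifs contains another. The 150 bases before the start are shown for 3 fatty acid genes that fell and 3 sterol genes that rose between the control and SJY groups, so that the branches can be compared; capitals mark CCAAT or, read on the other strand, ATTGG. They lie at chr10:85963632-85963781 (minus strand, Acly), chr1:216172034-216172183 (minus, Fads2), chr1:253231732-253231881 (minus, Scd), chr17:66547525-66547674 (minus, Idi1), chr19:67414975-67415124 (minus, Mvd) and chrX:155817210-155817359 (plus, Nsdhl) of GRCr8.
Acly: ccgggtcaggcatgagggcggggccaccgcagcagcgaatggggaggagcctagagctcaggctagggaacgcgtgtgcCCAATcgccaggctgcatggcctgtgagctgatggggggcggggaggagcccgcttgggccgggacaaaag
Fads2: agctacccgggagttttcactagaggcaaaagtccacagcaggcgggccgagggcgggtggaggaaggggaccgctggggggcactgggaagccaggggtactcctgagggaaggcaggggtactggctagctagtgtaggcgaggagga
Scd: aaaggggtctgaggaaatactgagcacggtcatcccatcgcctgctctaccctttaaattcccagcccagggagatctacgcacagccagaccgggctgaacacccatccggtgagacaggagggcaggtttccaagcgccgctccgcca
Idi1: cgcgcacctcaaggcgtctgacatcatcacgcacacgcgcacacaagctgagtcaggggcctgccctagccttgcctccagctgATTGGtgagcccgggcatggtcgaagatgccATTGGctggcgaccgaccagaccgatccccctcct
Mvd: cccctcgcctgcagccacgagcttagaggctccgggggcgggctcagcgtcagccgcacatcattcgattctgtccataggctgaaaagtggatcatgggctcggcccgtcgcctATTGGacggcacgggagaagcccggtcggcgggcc
Nsdhl: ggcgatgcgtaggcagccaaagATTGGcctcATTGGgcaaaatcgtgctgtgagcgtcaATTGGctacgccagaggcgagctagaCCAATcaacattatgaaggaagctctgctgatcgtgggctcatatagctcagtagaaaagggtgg
In these windows Nsdhl held 4 matches, Idi1 2, Mvd and Acly 1 each, and Scd and Fads2 had none. The genes shown do not stand for all those called in SJY: CCAAT was in the 250 bases of 5 of the 8 lower genes with an entry and of 4 of the 5 higher genes, with 2 matches in Elovl5, which fell, and none in Dhcr7, which rose. A match is a string of letters and was not tested as a binding site.

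Some libraries stood apart. The 13 mitochondrial genes took 37.7% of summed FPKM in ALI 1 and 17.1% in SJY 1, against 5.19% to 14.1% in the other 13 libraries, and these 2 libraries had the fewest genes at 1 FPKM or more (11865 and 12305, against 12833 to 13313). ALI 1 also had the lowest summed level of 9 alveolar type II markers, 6144 FPKM. Libraries ranged from 495244 to 700068 in summed FPKM and, from the steps between low values, from 0.945 to 1.1 times the depth of control 4; absolute depth is unknown. Control 4 stood apart for Scd, and control 5 was low for several sterol genes. Where 1 of these libraries decides a call, the value or range without it is given for most genes. Several values that were not called also shrank without ALI 1: the log2 fold change in ALI went from -0.45 to -0.26 for Elovl1, from -0.36 to -0.04 for Fads1, from -0.32 to -0.13 for Srebf2, from -0.26 to -0.15 for Scap and from 0.48 to 0.31 for Hmgcs1. Without SJY 1, the value in SJY went from -0.34 to -0.18 for Srebf2 and from -0.44 to -0.20 for Stard4.

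Between control and ALI, 3 of the 10 fatty acid genes tested fell and none rose, while 3 of the 18 sterol genes rose and none fell. Of the 5 SREBP control genes, Srebf1 fell. Acly, Acaca, Fasn and Srebf1 were the genes that fell, and Mvd, Idi1 and Nsdhl the ones that rose. The median log2 fold change was -0.51 over fatty acid genes, -0.36 over SREBP control genes and 0.21 over sterol genes, against -0.12 over all 13457 genes tested. Calls are at an adjusted p under 0.05 (limma, log2(FPKM + 1), Benjamini-Hochberg over all genes tested), and by this rule 8.02% of all genes were higher and 9.56% lower in ALI. Libraries of both groups did not overlap for Fasn and Srebf1 (lower) and Mvd and Nsdhl (higher), against 6.73% and 6.17% of all genes in those directions. With 2 of the 33 genes tested in each direction, these counts are close to the shares over all genes.

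In the SJY group against control, 6 of 10 fatty acid genes fell (Fads2, Scd, Acaca, Fasn, Elovl5 and Acly), 4 of 5 SREBP control genes fell (Srebf1, Insig2, Insig1 and Scap), and 5 of 18 sterol genes rose (Idi1, Mvd, Dhcr7, Nsdhl and Ebp). No gene of the first 2 groups rose and no sterol gene fell past the threshold. Among all genes tested, 14.6% of genes were called higher and 18.1% were lower. Medians were -0.66, -0.48 and 0.18 on the log2 scale for fatty acid, SREBP control and sterol genes, against -0.11 over all genes tested. Groups did not overlap for 7 fatty acid genes (the 6 called and Fads1) and Srebf1, all lower, against 15.9% of all genes. They did not overlap for Idi1, Mvd, Dhcr7 and Nsdhl, all higher, against 11.8%. Of the 33 genes tested these are 8 lower and 4 higher, and the count of higher genes is close to the share over all genes. Both comparisons share the control libraries, so their values are set side by side and are not independent.

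**Figure D1:**
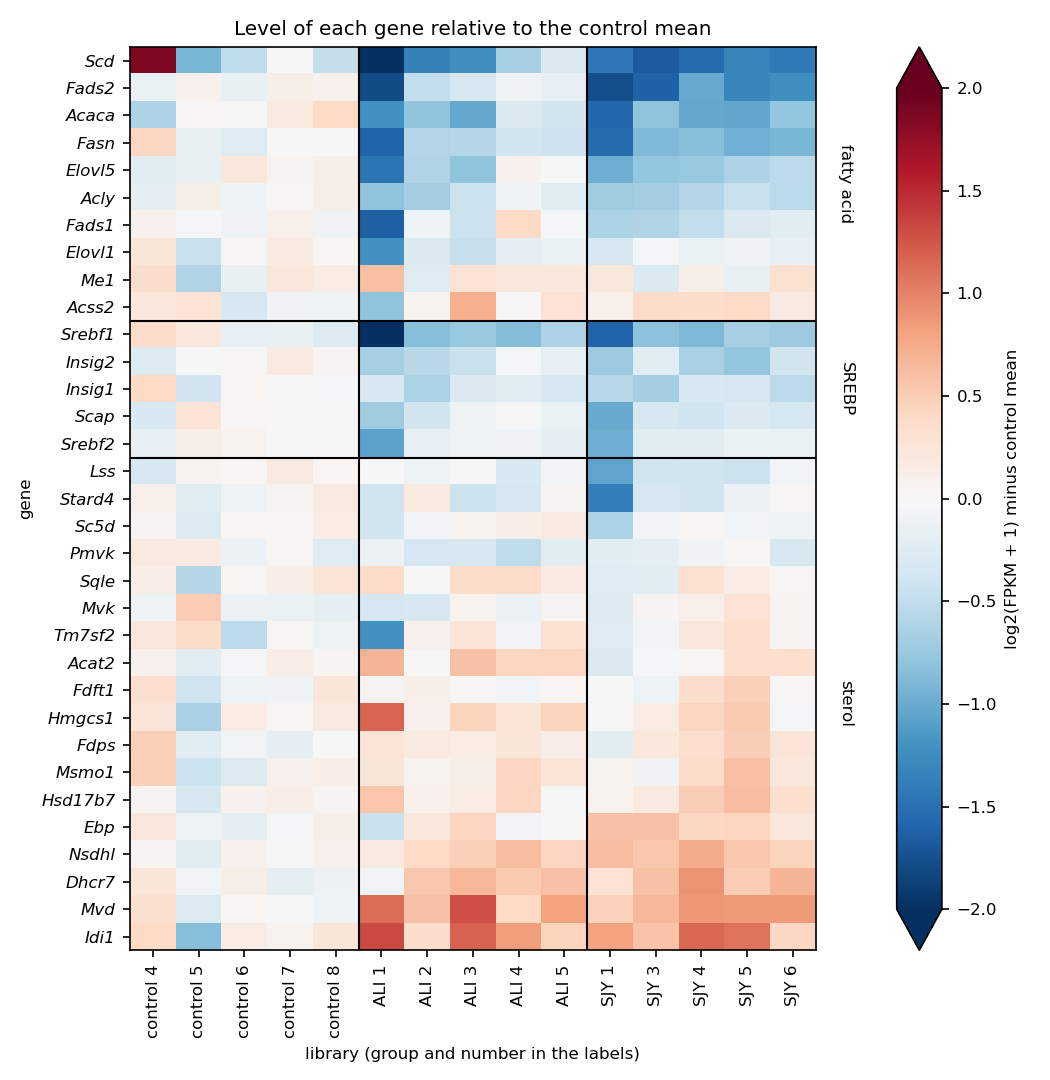
Each cell gives log2(FPKM + 1) of 1 gene (rows, by role) in 1 library (columns) minus the mean of the 5 control libraries; the colour scale ends at -2 and 2. Most fatty acid and SREBP rows are blue in ALI and SJY libraries. Nsdhl, Dhcr7, Mvd and Idi1 at the bottom are red there, except Dhcr7 in ALI 1, which is near the control mean.

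Between ALI and SJY no gene of the 34 was called, and among all genes tested 0.00743% (1 gene) were called higher and 0.0% were lower. Before adjustment, 1 of the 33 was higher in SJY at a p under 0.05 (Ebp) and 2 were lower (Fads2 and Acat2), where 1587 of all 13457 genes tested passed that p in either direction. Groups did not overlap in either direction for any of the 33, against 2.24% (higher) and 0.988% (lower) of all genes. The median log2 difference, SJY minus ALI, was -0.17 over fatty acid genes, -0.12 over SREBP control genes and 0.02 over sterol genes, against 0.03 over all genes.

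A mean over each branch shows the divergence in single libraries. The mean log2(FPKM + 1) of the 10 fatty acid genes minus that of the 18 sterol genes was 1.82, 1.82, 1.71, 1.86 and 1.76 in control 4 to 8. It was 0.38, 1.17, 1.06, 1.52 and 1.45 in ALI 1 to 5, and 1.03, 0.98, 0.87, 0.84 and 1.07 in SJY 1, 3, 4, 5 and 6. Every ALI and SJY library lay below every control library, and ALI and SJY libraries overlapped. The control mean was 1.79 ± 0.06 (SD, n = 5), the ALI mean 1.12 ± 0.45 and the SJY mean 0.96 ± 0.10. Group differences were -0.68 for ALI minus control (-0.49 without ALI 1) and -0.84 for SJY minus control. The fatty acid mean was 5.05 ± 0.16, 4.58 ± 0.46 and 4.4 ± 0.13 for control, ALI and SJY. The sterol mean was 3.26 ± 0.14, 3.46 ± 0.07 and 3.44 ± 0.19 in the same order, on the deposited scale a smaller shift than that of the fatty acid mean. After median-of-ratios scaling, the median log2 fold changes in ALI were close in size, -0.36 over fatty acid and 0.34 over sterol genes. Since these means are taken over chosen genes, no test is given.

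**Figure D2:**
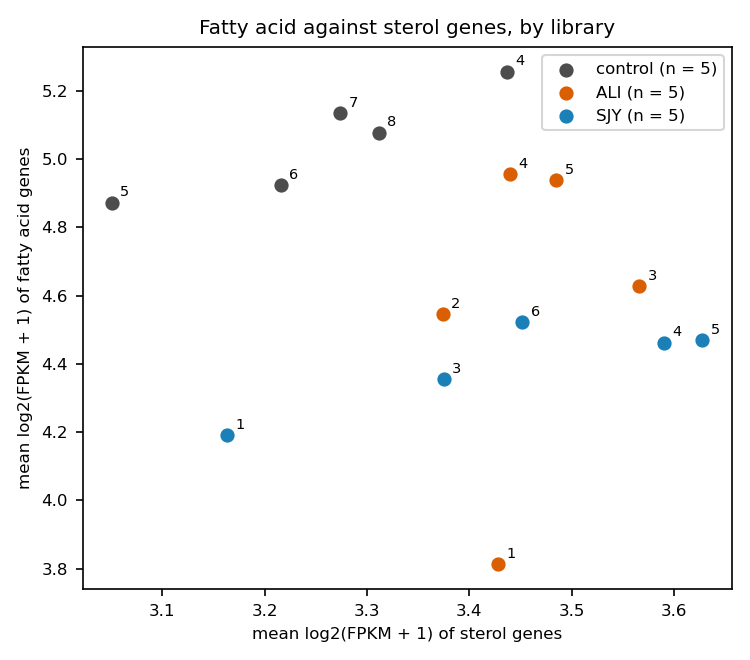
Each point is 1 library (number from the labels), with the mean log2(FPKM + 1) of the 18 sterol genes on the horizontal axis and of the 10 fatty acid genes on the vertical axis. On the vertical axis control points lie from 4.87 to 5.26 and SJY points from 4.19 to 4.52; ALI points run from 3.81 (ALI 1) to 4.96, and ALI 4 and ALI 5 are level with the controls. On the horizontal axis the groups overlap.

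Fatty acid synthesis begins with acetyl-CoA supply. Values below follow the order control 4, 5, 6, 7 and 8, then ALI 1, 2, 3, 4 and 5, then SJY 1, 3, 4, 5 and 6. Acly (ENSRNOG00000016924), which splits citrate into acetyl-CoA in the cytosol, was at 51.6, 63.2, 55, 59.5 and 63.3 FPKM in the control libraries, 33, 36.2, 43, 55 and 49.7 in the ALI libraries and 35.2, 35.7, 38.7, 42.5 and 39.7 in the SJY libraries. It was lower in SJY than in every control library, and ALI 4 alone of the ALI libraries reached the control range. The log2 fold change was -0.44 (SE 0.13, limma adjusted p = 0.0281) in ALI and -0.60 (SE 0.13, adjusted p = 0.00326) in SJY. Acss2, which makes acetyl-CoA from acetate, was not called: it averaged 9.33 ± 1.71, 10.2 ± 3.97 and 11.5 ± 1.13 FPKM in control, ALI and SJY. With array weights, Acss2 was called higher in SJY than in control (log2 fold change 0.43, limma adjusted p = 0.00434). Me1, the malic enzyme that supplies NADPH, averaged 10.8 ± 2.82, 12.6 ± 2.82 and 11.0 ± 2.06 FPKM.

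Acaca (ENSRNOG00000034013), the acetyl-CoA carboxylase of the committed step, was at 3.5, 5.99, 5.92, 6.85 and 8.03 FPKM in the control libraries, 1.96, 3, 2.38, 4.62 and 4.27 in the ALI libraries and 1.32, 2.92, 2.38, 2.35 and 3.03 in the SJY libraries. All SJY libraries were below all control libraries, and control 4 overlapped ALI 4 and ALI 5. Its log2 fold change was -0.74 (SE 0.23, limma adjusted p = 0.0345) in ALI and -1.04 (SE 0.23, adjusted p = 0.00325) in SJY. Fasn (ENSRNOG00000045636), the synthase that assembles palmitate, was at 126, 84.9, 78.5, 93.3 and 94.6 FPKM in the control libraries, 30.4, 62.5, 63.3, 72.3 and 70.3 in the ALI libraries and 31.9, 50.4, 51.5, 47.8 and 49.5 in the SJY libraries. No ALI or SJY library reached the lowest control value, and ALI 1 and SJY 1 were the lowest of their groups. Mean Fasn was 62.6% of control in ALI (log2 fold change -0.71, SE 0.21, limma adjusted p = 0.0329) and 48.4% in SJY (-1.03, SE 0.21, adjusted p = 0.00245). The ALI calls were sensitive to single libraries: Acaca was lost without any of 7, ALI 1 among them (adjusted p from 0.0631 to 0.0888), Fasn without control 4, 5, 7 or 8 (0.0525 to 0.0644), and Acly without control 5, 7 or 8 or ALI 2 (0.0618 to 0.0689). The Acly call in ALI was also lost after median-of-ratios scaling (-0.30, adjusted p = 0.0634).

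Desaturases put double bonds into finished chains. Scd (ENSRNOG00000013552), the desaturase that makes oleate, was at 122, 16.9, 22.6, 32.9 and 23.2 FPKM in the control libraries, 4.92, 12.2, 13.3, 20.1 and 26.4 in the ALI libraries and 11.5, 9.64, 10.6, 12.2 and 11.6 in the SJY libraries. Control 4 was far above the other controls, yet all 5 SJY libraries were below the lowest control. The log2 fold change in SJY was -1.48 (SE 0.45, limma adjusted p = 0.0207), and -1.01 without control 4 (adjusted p = 0.029). In ALI it was -1.21 (adjusted p = 0.0726), and -0.74 without control 4 (adjusted p = 0.118). Scd was called lower in ALI without ALI 5 (-1.44, limma adjusted p = 0.0374) and after removal of mitochondrial genes (-1.26, adjusted p = 0.0488). Scd2 is a close copy, and how reads shared by both genes were counted is not given in the sources used here.

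Fads2 (ENSRNOG00000020440), the first desaturase of polyunsaturated fatty acid synthesis, was at 20.3, 24, 20.2, 24.5 and 23.8 FPKM in the control libraries, 5.8, 15.6, 17.8, 21.3 and 20 in the ALI libraries and 5.89, 6.62, 10.7, 8.51 and 9.06 in the SJY libraries. The SJY libraries were all under the lowest control value, and 4 of the 5 ALI libraries were above the highest SJY library. Mean Fads2 was 36.1% of control in SJY (log2 fold change -1.39, SE 0.26, limma adjusted p = 0.00129) and 71.4% in ALI (-0.57, SE 0.26, adjusted p = 0.133, and -0.26 without ALI 1, adjusted p = 0.235). SJY minus ALI was -0.82 (95% interval -1.37 to -0.26, adjusted p = 0.262). Without ALI 1, the ALI library with the lowest Fads2, that difference was -1.12 with an adjusted p of 0.00578, and leaving out SJY 1 as well, chosen after seeing the data, gave -1.03 with 0.0274. It was the gene of the 34 with the lowest unadjusted p between ALI and SJY, 0.00651. Fads1, the next desaturase of that route, was at 43.9, 40, 39.4, 44.3 and 39.2 FPKM in the control libraries, 12.7, 38.7, 30.4, 54.9 and 40.5 in the ALI libraries and 26.4, 26.9, 29.1, 33.6 and 35.1 in the SJY libraries. Its SJY libraries were all under the control range, but the test did not call it (log2 fold change -0.45, adjusted p = 0.205; called with only those groups fitted, 0.00399, with array weights, 0.00569, and without ALI 1 and SJY 1, 0.0294), and the ALI libraries ran from far below to above the controls.

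Among the elongases, Elovl5 (ENSRNOG00000006331), which extends polyunsaturated chains, was at 87.3, 91.6, 118, 105 and 110 FPKM in the control libraries, 36.3, 67, 58, 108 and 101 in the ALI libraries and 51.2, 59.3, 59.6, 66 and 70.5 in the SJY libraries. SJY libraries were all below the controls, whereas ALI 4 and ALI 5 were within the control range. The log2 fold change was -0.73 in SJY (SE 0.23, limma adjusted p = 0.0228) and -0.56 in ALI (adjusted p = 0.0966, and -0.33 without ALI 1, adjusted p = 0.19). Elovl5 was called lower in ALI without ALI 4 (-0.72, limma adjusted p = 0.033) or ALI 5 (-0.70, adjusted p = 0.0394). The SJY call was lost without control 6, control 8 or SJY 1 (adjusted p from 0.0515 to 0.0571). Elovl1, an elongase of very long saturated chains, had the highest mean level of the 34 genes in each group, at 104 ± 17.9, 77.0 ± 20.0 and 92.5 ± 7.74 FPKM, and was not called.

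**Figure D3:**
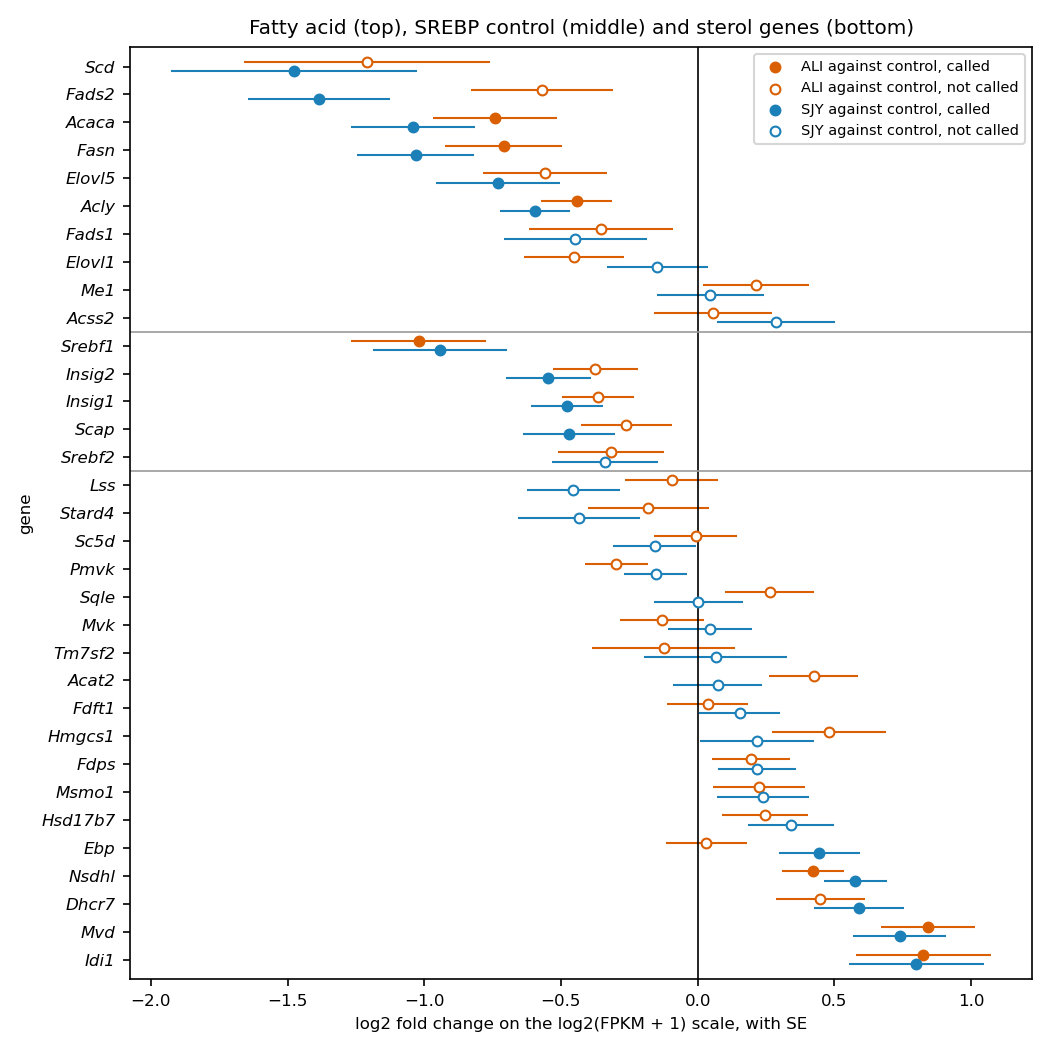
Points give the log2 fold change of each of the 33 genes tested against control, on the log2(FPKM + 1) scale, with SE bars; filled points passed an adjusted p under 0.05. Called fatty acid and SREBP control genes lie left of 0, from Scd at -1.48 in SJY, and called sterol genes lie right of 0, up to Mvd at 0.84 in ALI.

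In the SREBP control group, Srebf1 (ENSRNOG00000003463) was at 35.3, 31.8, 23.9, 24.4 and 22.2 FPKM in the control libraries, 5.98, 14.6, 15.6, 14.4 and 17.2 in the ALI libraries and 8.26, 14.9, 14.1, 16.7 and 16.1 in the SJY libraries. All 10 LPS libraries were below the lowest control, and ALI 1 and SJY 1 were the lowest. Mean Srebf1 was 49.3% of control in ALI (log2 fold change -1.02, SE 0.25, limma adjusted p = 0.0113) and 50.8% in SJY (-0.94, SE 0.25, adjusted p = 0.0094). Leaving out ALI 1 kept the ALI call, at -0.77 (adjusted p = 0.00812). The table has 1 line for Srebf1, so the SREBP-1a and SREBP-1c transcripts were not separated. Srebf2 averaged 47.9 ± 3.60 FPKM in control libraries, 39.4 ± 9.73 with LPS alone and 38.5 ± 8.29 with the formula. The 2 lowest Srebf2 values, 22.2 and 23.9, were those of ALI 1 and SJY 1, and no comparison called the gene (adjusted p = 0.251 in ALI and 0.193 in SJY).

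Scap (ENSRNOG00000020853) was 20.9 ± 3.05, 17.4 ± 3.41 and 14.9 ± 2.90 FPKM in control, ALI and SJY (SD, n = 5), and its log2 fold change in SJY was -0.47 (SE 0.17, limma adjusted p = 0.0412). That call was lost when any of 8 single libraries was left out, SJY 1 among them (adjusted p = 0.104). Insig1 (ENSRNOG00000006859), itself a target of SREBPs, was at 63.7, 36.8, 49.4, 47.5 and 46.5 FPKM in the control libraries, 38.2, 30.6, 39.2, 40.4 and 38 in the ALI libraries and 32.4, 29.6, 38.6, 37.9 and 33.2 in the SJY libraries. The SJY libraries overlapped control 5 alone. Its log2 fold change was -0.48 in SJY (SE 0.13, limma adjusted p = 0.0125, and 0.0917 after median-of-ratios scaling) and -0.36 in ALI (adjusted p = 0.0671). Without control 5, Insig1 was called lower in ALI (-0.46, limma adjusted p = 0.0287). Insig2 (ENSRNOG00000002478) was 11.3 ± 1.35, 8.58 ± 1.79 and 7.49 ± 1.5 FPKM, and fell by 0.55 on the log2 scale in SJY (SE 0.15, limma adjusted p = 0.0142).

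Sterol synthesis starts with the condensation of acetyl-CoA. Acat2, the thiolase that makes acetoacetyl-CoA, was 1.76 ± 0.26, 2.74 ± 0.63 and 1.93 ± 0.54 FPKM in control, ALI and SJY. It was not called in ALI (log2 fold change 0.425, limma adjusted p = 0.0807). Acat2 was called higher in ALI after median-of-ratios scaling (0.53, limma adjusted p = 0.0455) and without ALI 2 (0.53, adjusted p = 0.0397). Hmgcs1, the HMG-CoA synthase, was at 18.4, 9.27, 16.9, 15.6 and 17.4 FPKM in the control libraries, 35.3, 16, 21, 18.3 and 20.9 in the ALI libraries and 15.1, 16.8, 20.8, 22.1 and 14.9 in the SJY libraries. ALI 1 gave the highest value and control 5 the lowest, the other libraries overlapped, and neither comparison with control called the gene (adjusted p = 0.117 in ALI and 0.453 in SJY). The mevalonate kinases Mvk and Pmvk averaged 13.0 ± 3.15 and 21.4 ± 2.89 FPKM in control, 11.6 ± 1.72 and 17.2 ± 1.83 in ALI, and 13.3 ± 1.91 and 19.1 ± 1.93 in SJY. Pmvk was called lower in ALI without ALI 1 (log2 fold change -0.34, adjusted p = 0.0482), and not with it (-0.30, adjusted p = 0.0847).

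Mvd (ENSRNOG00000013376), the decarboxylase that turns mevalonate diphosphate into isopentenyl diphosphate, was at 7.94, 4.97, 6.4, 6.18 and 5.74 FPKM in the control libraries, 14.6, 9.76, 16.6, 8.5 and 11.6 in the ALI libraries and 8.93, 10.4, 12.2, 11.9 and 11.9 in the SJY libraries. Every ALI and SJY library was above every control library. The mean was 196% of control in ALI (log2 fold change 0.84, SE 0.17, limma adjusted p = 0.00385) and 177% in SJY (0.74, SE 0.17, adjusted p = 0.00464). Idi1 (ENSRNOG00000016690), the isomerase of the next step, was at 8.25, 2.91, 6.85, 6.39 and 7.3 FPKM in the control libraries, 16.6, 7.96, 15, 11.6 and 8.59 in the ALI libraries and 11.3, 9.46, 14.6, 13.9 and 8.39 in the SJY libraries. SJY libraries were all above the controls, by a small margin at SJY 6, while ALI 2 overlapped control 4. Its log2 fold change was 0.83 in ALI (SE 0.25, limma adjusted p = 0.0315) and 0.80 in SJY (SE 0.25, adjusted p = 0.0221). Without control 5, which had the lowest Idi1, the adjusted p was 0.0754 in ALI and 0.0542 in SJY, and without ALI 1 it was 0.0604 in ALI. The call was also lost in ALI without control 6, control 7 or ALI 3 (adjusted p from 0.0507 to 0.0705), and in SJY without SJY 4 or SJY 5 (0.0568 and 0.051). Removal of mitochondrial genes ended the SJY call (0.67, adjusted p = 0.0509), and array weights ended the ALI call (0.56, adjusted p = 0.0541). Mvd was called in both comparisons with any single library left out.

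The middle of the route was not called in either comparison. Fdps, the farnesyl diphosphate synthase and the most abundant sterol gene in each group, was 36.6 ± 8.03, 41.4 ± 1.56 and 42.6 ± 7.49 FPKM in control, ALI and SJY. Control 4 had 50.5 FPKM and stood above the other controls, and without it the SJY difference was called (log2 fold change 0.34, adjusted p = 0.0491). Fdft1, the squalene synthase, was 16 ± 3.40, 16.1 ± 0.77 and 17.8 ± 3.36 FPKM, and Sqle, the squalene epoxidase, 13.0 ± 2.77, 15.5 ± 1.89 and 12.9 ± 2.33. Lss, which closes the lanosterol ring, was 4.42 ± 0.67, 4.05 ± 0.41 and 3.02 ± 0.93 FPKM. Its log2 fold change of -0.46 in SJY had an adjusted p of 0.051, which became 0.0232 after removal of mitochondrial genes and 0.0268 without control 4.

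After lanosterol, 3 genes were called. Nsdhl (ENSRNOG00000057814), a dehydrogenase that acts in removal of methyl groups from the sterol ring, was at 7.69, 6.12, 7.86, 7.32 and 7.82 FPKM in the control libraries, 8.47, 9.98, 10.7, 11.8 and 10.2 in the ALI libraries and 11.7, 11.1, 13, 11.1 and 10.3 in the SJY libraries. All ALI and SJY libraries were above all controls. The log2 fold change was 0.42 in ALI (SE 0.11, limma adjusted p = 0.0198, and 0.0531 without control 5) and 0.58 in SJY (SE 0.11, adjusted p = 0.00184). Dhcr7 (ENSRNOG00000020776), the reductase of a last step to cholesterol, was at 3.56, 2.72, 3.2, 2.38 and 2.56 FPKM in the control libraries, 2.73, 4.58, 5.09, 4.54 and 4.78 in the ALI libraries and 3.69, 4.79, 6.18, 4.47 and 5.21 in the SJY libraries. ALI 1 was the only ALI library inside the control range. Dhcr7 rose in SJY (log2 fold change 0.59, SE 0.16, limma adjusted p = 0.0128). In ALI the value was 0.45 (adjusted p = 0.0676), and 0.57 without ALI 1 (adjusted p = 0.0117). Ebp (ENSRNOG00000004903), the sterol isomerase, was at 21.4, 16.7, 15.6, 17.5 and 19.7 FPKM in the control libraries, 13.1, 21.4, 24.8, 17.3 and 18 in the ALI libraries and 27.6, 27.5, 24.4, 24.7 and 21.2 in the SJY libraries. Its SJY values overlapped the controls at SJY 6 alone and its ALI values spread across the control range. Ebp rose in SJY by 0.45 on the log2 scale (SE 0.15, limma adjusted p = 0.0317), a call lost after removal of mitochondrial genes (adjusted p = 0.0717) and without any of 7 single libraries.

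The other late genes were not called. Msmo1, the methylsterol oxidase, was 19.5 ± 5.15, 22.5 ± 2.40 and 22.9 ± 4.41 FPKM in control, ALI and SJY. Hsd17b7, a ketosteroid reductase, was low at 1.30 ± 0.27, 1.74 ± 0.46 and 1.92 ± 0.45 FPKM, as was the sterol reductase Tm7sf2 at 2.53 ± 0.79, 2.38 ± 1.12 and 2.66 ± 0.58. The desaturase Sc5d was 9.02 ± 1.03, 9.02 ± 1.44 and 8.07 ± 1.51 FPKM. Stard4, a carrier of cholesterol between membranes, was 13.9 ± 1.73, 12.3 ± 2.71 and 10.6 ± 3.62 FPKM, with the lowest value, 4.68, in SJY 1.

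**Figure D4:**
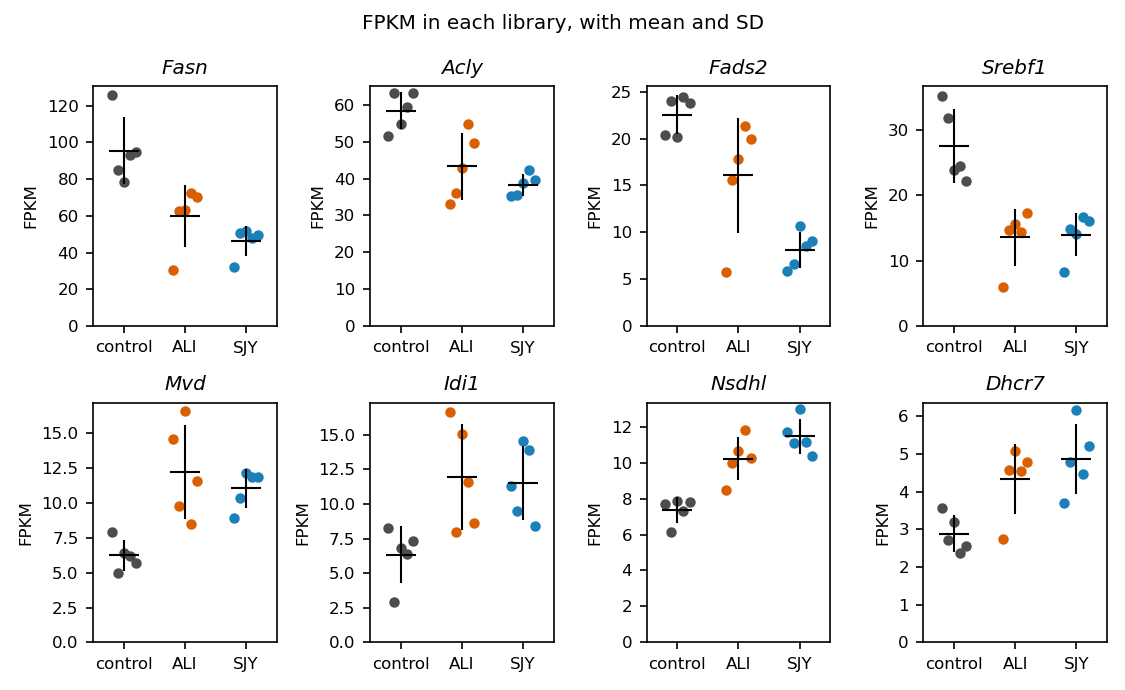
Each dot is the FPKM of 1 library (5 per group), with a horizontal bar at the group mean and a vertical bar for the SD; axes start at 0. Fasn, Acly, Fads2 and Srebf1 in the upper row are lower in SJY than in control, and Mvd, Idi1, Nsdhl and Dhcr7 in the lower row are higher.

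By level, the order at the top stayed similar across groups. Elovl1, Elovl5 and Fasn ranked 1, 2 and 3 by mean FPKM among the 34 genes in all 3 groups, although the libraries of Elovl1 and Elovl5 overlapped in control and ALI and were apart in SJY. Fads2 ranked 11 in control, 15 in ALI and 25 in SJY. Scd ranked 7, 17 and 21, but its control rank rests on control 4: the control mean is 43.5 FPKM and the median 23.2. Ebp ranked 15, 11 and 9.

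For genes the test did not separate between ALI and SJY, the intervals give a range for the difference. They are not adjusted over genes and include ALI 1. The 95% interval of SJY minus ALI on the log2 scale was -0.78 to 0.13 for Fasn, -0.44 to 0.60 for Srebf1, -0.43 to 0.12 for Acly, -0.47 to 0.26 for Mvd and -0.55 to 0.50 for Idi1. For Ebp it was 0.10 to 0.73 (unadjusted p = 0.0133, limma adjusted p = 0.311). For Acat2 it was -0.70 to -0.01 (unadjusted p = 0.0468, adjusted p = 0.413). These differences depended on ALI 1. With all libraries the difference was -0.324 for Fasn, 0.079 for Srebf1, -0.152 for Acly, -0.104 for Mvd and -0.026 for Idi1. Without ALI 1 it was -0.546, -0.168, -0.241, -0.035 and 0.098 in the same order, none of them called.

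Other genes of these routes came from a list of 87 symbols outside the 34, of which 84 were found; Lbr, Mlxipl and Pgd were not analysed here. Among 10 tested genes of sterol synthesis and uptake, 2 fell in ALI and 4 in SJY and none rose, where 9.56% and 18.1% of all genes tested fell. Cyp51, the lanosterol demethylase, was 17.0 ± 4.33, 22.1 ± 3.23 and 19.6 ± 3.08 FPKM in control, ALI and SJY, and was not called. The lysosomal cholesterol carriers Npc1 and Npc2 fell in both groups (log2 fold changes -0.84 and -0.53 in ALI, -0.95 and -0.57 in SJY).

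Among 20 further fatty acid genes tested, 5 fell and 3 rose in ALI, and 6 fell and 4 rose in SJY. Over all genes tested, 9.56% fell and 8.02% rose in ALI, and 18.1% fell and 14.6% rose in SJY. Scd2 fell from 180 ± 33.4 FPKM in control to 80.4 ± 38.3 in ALI and 57.5 ± 7.23 in SJY (log2 fold changes -1.32 and -1.62, limma adjusted p = 0.00927 and 0.00135). Acacb, the carboxylase at the mitochondrion, fell in both groups (-1.08 and -1.03), Fads3 fell in ALI (-0.92) and Mlxip in SJY (-1.02). Among those that rose, Hsd17b12, a ketoacyl-CoA reductase of elongation, rose by 0.52 and 0.50, Slc25a1, the citrate carrier, by 0.40 in ALI, and Hacd2, a dehydratase of elongation, by 0.84 in SJY.

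Cell markers differed between the same groups. The 8 neutrophil markers, all called higher in both groups, summed to 65.5 to 110 FPKM in control libraries, 1328 to 15940 in ALI and 6970 to 11910 in SJY. The 9 alveolar type II markers summed to 16620 to 25310 FPKM in control, 6144 to 21140 in ALI and 17840 to 20370 in SJY, with 4 of 9 called lower in ALI and 3 of 9 in SJY; Sftpc and Sftpa1 were not called. Adipocyte markers, 10 in all, summed to 41.3 to 62.4, 34.7 to 73.9 and 52.6 to 89.8 FPKM, mostly Lipe and Cfd. Other lists differed too: alveolar type I markers were called lower for 6 of 6 in ALI and 4 of 6 in SJY. Macrophage markers were called higher for 5 of 8 and lower for 1 in each comparison, proliferation markers higher for 4 of 6 in each, and fibroblast markers higher for 3 of 5 in each. Airway markers were lower for 2 of 3 in ALI and 1 of 3 in SJY, endothelial markers for 1 of 3 in each, and no T cell or B cell marker was called. For all genes tested, the shares called were 8.02% higher and 9.56% lower in ALI, and 14.6% higher and 18.1% lower in SJY. A list of 3 genes is too short to be set against these shares. Of the 4 adipocyte markers tested, none was called in ALI. In SJY, Cfd was called higher and Cidec lower (log2 fold changes 1.35 and -0.53, limma adjusted p = 0.00325 and 0.0448). The defining adipocyte genes Lep, Plin1 and Adipoq were at most 0.32 FPKM in control and SJY libraries. In ALI they were at most 2.49 (Adipoq in ALI 3), and at most 0.30 in the ALI libraries other than ALI 3. The part of these marker levels in the results on the 34 genes was not tested. In bulk lung RNA, fewer cells of a type and less RNA per cell cannot be told apart.

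Values were used as deposited, and the share of all calls that were higher depended on scaling: 1079 higher and 1287 lower in ALI against control became 1473 and 1254 after median-of-ratios scaling, and 954 and 1735 after removal of mitochondrial genes, and for SJY 1959 and 2431 became 2383 and 2286, and 1353 and 3760. Median-of-ratios scaling moved the median of all genes from -0.12 to 0.00 in ALI and from -0.11 to 0.00 in SJY. The fatty acid and sterol medians were then -0.36 and 0.34 in ALI, and -0.55 and 0.30 in SJY. With that scaling 2 fatty acid genes were called lower and 5 sterol genes higher in ALI, Acat2 and Dhcr7 among the latter. In SJY it gave 6 fatty acid genes lower and 5 sterol genes higher. Removing mitochondrial genes moved the median of all genes to -0.16 in ALI and -0.24 in SJY. The fatty acid and sterol medians were then -0.55 and 0.17 in ALI, and -0.81 and 0.04 in SJY, where 3 sterol genes were called higher and 1 (Lss) lower. With both ALI 1 and SJY 1 left out they were -0.30 and 0.17 in ALI and -0.62 and 0.23 in SJY, with 3 of 10 fatty acid genes lower and 3 of 18 sterol genes higher (1 lower, Pmvk) in ALI, and 7 of 10 and 7 of 18 in SJY. Among the 13420 genes tested in that run, 1448 rose and 1405 fell in ALI, and 2511 rose and 3095 fell in SJY. The medians of all genes were then -0.02 in ALI and -0.05 in SJY. Leaving out both libraries was chosen after seeing the data.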

How the data were processed

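Lung RNA was isolated with TRIzol and 1 µg of it entered the NEBNext Ultra RNA kit, per the labels' protocols. HISAT2, StringTie and cutadapt are the tools, and Rnor_6.0 the build, named in the submitters' processing notes; versions and strand setting are not given in the sources used here, so reads of overlapping genes on opposite strands cannot be told apart. The deposited table gives FPKM values per the file headers for 22250 genes in 15 libraries, 5 per group. Read counts and depth cannot be read from them, and intervals cover spread between libraries only, which may be technical, since the labels do not say that libraries are separate animals.

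Genes with at least 1 FPKM in at least 5 libraries (13457) were tested on log2(FPKM + 1) with limma 3.58.1 in R 4.3.3, fitting all 3 groups at once with trend and robust settings and Benjamini-Hochberg adjustment over all genes tested. Fold changes on this scale understate changes of low genes. The script was tested on simulated data. Promoter letters were searched in RefSeq sequences (GRCr8); no coordinates of the files' build are given. The 34 genes, lists and markers were chosen with earlier results of these data known. All 34 are named; from each other pathway list, up to 3 called genes per direction with the largest log2 fold change are named, plus Cyp51; some genes this rule selects are not reported here. Marker lists are given by summed FPKM. Marker genes Trac, Col1a2, Pecam1 and Foxj1 were not analysed here. Alternatives covered scaling, mitochondrial genes, pseudocount, filter, fit settings, weights, a replicate block and each library left out.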

Additional observations from a re-analysis of the deposited data

Results flagged for a closer look

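In groups of 5 libraries, the highest or lowest library was set against its nearest neighbour over 111 gene and group combinations and list means. In 15 of them its gap exceeded Dixon's 95% critical value, which flags about 1 in 20 groups of independent, normally distributed values. The same 15 libraries recur over these genes and list means, so the count of flags cannot be set against that rate. ALI 1 was the low library for Fasn (30.4 FPKM), Srebf1 (5.98), Srebf2 (22.2) and Dhcr7 (2.73), and the high one for Hmgcs1 (35.3). SJY 1 was the low library for Fasn (31.9), Srebf2 (23.9), Scap (9.78) and Sc5d (5.43), and for the mean log2(FPKM + 1) of the 5 SREBP control genes (3.84). Control 4 was high for Scd (122) and Fdps (50.5). Control 5 was high for Mvk (18.6) and low for Hsd17b7 (0.82), and ALI 2 was low for Insig1 (30.6). ALI 1 and SJY 1 are also the libraries with the largest share of mitochondrial FPKM, 37.7% and 17.1%; the part of that share in these values was not tested.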

How the results depend on the processing

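No called result on the 34 genes changed sign under any alternative run. For the members called, 7 in ALI against control became 2 when only those groups were fitted and 3 to 9 with single libraries left out (3 without control 5 or control 7, 4 without control 8). The count between ALI and SJY, 0, became 1 (Fads2) with array weights and with ALI 1 and SJY 1 both left out, an alternative chosen after seeing the data, and was 0 to 1 with single libraries left out (1 without ALI 1). The 15 called in SJY against control ranged from 12 to 17 with single libraries left out. With the replicate block, fitted on shared library numbers only, members called were 1 in ALI against control and 4 in SJY against control, and all genes called were 313 and 1142. Same-numbered libraries correlated from -0.39 to 0.30 in their deviations. Such correlations cannot show whether equal numbers share a day or batch, so whether numbers pair the libraries is not known. Over all genes, the 2366 called in ALI against control became 1332 with only those groups fitted, 3959 with array weights, and 1538 to 2890 with single libraries left out (1545 without control 5, 1538 without control 7). The 4390 called in SJY against control became 7654 with array weights, and 3329 to 4670 with single libraries left out. The 1 gene called between ALI and SJY became 0 with median-of-ratios scaling, pseudocount 0.1, no filter, only those groups fitted, or limma without trend and robust settings, 478 with array weights and 58 without ALI 1 and SJY 1; single libraries left out gave 0 to 181 (181 without ALI 1). Fatty acid minus sterol means ranged, with single libraries left out, from -0.78 to -0.49 for ALI minus control, -0.34 to -0.06 for SJY minus ALI and -0.86 to -0.81 for SJY minus control. The cause of these shifts was not tested. Absolute depth is unknown, which limits genes near 1 FPKM such as Hsd17b7, Acat2 and Tm7sf2.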

Other observations

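Genes next to the synthesis routes were also called. Dgat2, an enzyme of the last step of triglyceride synthesis, was at 15.2, 18.0, 15.3, 16.5 and 15.2 FPKM in control 4 to 8, 98.4, 48.5, 37.5, 53.1 and 26.6 in ALI 1 to 5, and 101, 79.6, 89.3, 75.9 and 93.8 in SJY 1, 3, 4, 5 and 6. All ALI and SJY libraries lay above all controls (log2 fold changes 1.53 and 2.38, limma adjusted p = 0.000591 and 4.6e-06). Over the 18 tested glycerolipid and surfactant lipid genes, 1 rose and 1 fell (Lpin3, -0.67) in ALI, and 2 rose and 5 fell in SJY. Over all genes tested, 8.02% rose and 9.56% fell in ALI, and 14.6% rose and 18.1% fell in SJY, and of these 4 counts only that of genes that fell in SJY was above this background. Those that fell most in SJY were Gpam, which starts glycerolipid synthesis (-1.51), Abca3, the surfactant lipid transporter (-1.20), and Lpin1, a phosphatidate phosphatase (-1.01).

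In the list of 11 sterol disposal and LXR genes, 3 rose and 1 fell in ALI, and 3 rose and 2 fell in SJY, to be read against the same shares over all genes. The sterol hydroxylases Ch25h and Cyp7b1 rose from 13.8 ± 3.36 and 1.69 ± 0.49 FPKM in control to 28.3 ± 6.28 and 8.79 ± 5.28 in ALI and 31.8 ± 4.98 and 7.74 ± 0.41 in SJY (SD, n = 5). Nr1h3, the nuclear receptor LXR alpha, was 44.9 ± 4.65, 66.9 ± 11.4 and 93.2 ± 8.52 FPKM (log2 fold changes 0.55 and 1.04, limma adjusted p = 0.00695 and 2.72e-05). Srebf1, a known LXR target, was lower in the same libraries. Mylip, a ubiquitin ligase, fell in both groups (-0.95 and -1.31), and Soat1, the sterol acyltransferase, fell in SJY (-0.93). Of 18 fatty acid oxidation genes tested, 2 fell in ALI (Ppara, -0.65, and Ehhadh, -0.68). In SJY 4 fell, led by Pdk4 (-1.35), and 1 rose (Slc25a20, 0.33), counts close to or below the same background.

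Control 4, the library with the highest Scd, also had the lowest control values of 3 other genes: Cpt1a, the gate of mitochondrial fatty acid oxidation, was 12.8 FPKM there against 38.3 to 45.0 in the other controls, Pdk4 was 4.88 against 14.2 to 26.6, and Gpam was 6.45 against 16.7 to 20.6. These 3 genes were singled out after their values were seen.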
